A study of Mus musculus with 2 samples.

Results

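R-loop peaks over a single protein-coding gene start were studied in primary neural stem/progenitor cells (NSPCs), cultured from the frontal brain of C57BL/6 mice at postnatal day 7. The cells were treated with aphidicolin, a DNA polymerase inhibitor that slows replication, according to the methods, since the labels name no treatment. RNA:DNA hybrids were recovered from restriction-digested genomic DNA with the S9.6 antibody and sequenced (DRIP-seq), and the authors deposited 1 peak list of positions on the mm9 genome. For each library, repeat DRIP reactions of a biological replicate had been pooled. The paper reports its peaks from independent biological replicates, which the deposited list does not separate. The input library of the same cells was not used here.

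Of the 22132 peaks, 2102 (9.50%) contained the start of a protein-coding gene, contained no end of a protein-coding gene, and held no opposite-strand starts within 1 kb of each other. Gene starts and ends were the outermost positions of each gene in the GENCODE M1 annotation of mm9. The 2102 peaks held 2134 gene starts, 9.54% of the 22367 protein-coding starts annotated. Starts in any peak numbered 3325 (14.9%), of which 647 lay in peaks over divergent pairs and 544 in peaks that also held a gene end. The peaks over 1 gene start covered 6.28 Mb, 12.8% of all bases in peaks. The label of a single start held for 2070 of these peaks, and 32 held a second start. Because the list does not separate replicates and holds no read counts or signal, no test was made between groups of peaks or genes. All values below describe this list. Whether a start outside the peaks lacked an R-loop cannot be read from the list.

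An R-loop is a three-stranded structure in which RNA pairs with the template strand of DNA and leaves the non-template strand single. R-loops are known to form behind RNA polymerase as it leaves a promoter, above all where the non-template strand is rich in G, because RNA with many G residues binds C-rich template DNA tightly. Many mammalian promoters lie in CpG islands, and GC skew, the imbalance between G and C along a strand, often sets in at their start site. It is written here as (G-C)/(G+C) on the coding strand, so that positive values mean more G than C in the non-template strand.

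The following stretches of 100 bases were read on the coding strand of mm9, on the gene side of the start, inside the peak and outside annotated exons. Capitals mark runs of at least 3 G. Olig2 and Sox9 encode transcription factors of glial and neural progenitors, Msi1 an RNA-binding protein of neural stem cells, and Vim the intermediate filament vimentin. They had the widest peaks among the neural stem and progenitor markers, and the stretch where G most exceeds C in each peak is shown.
Olig2 (chr16:91226346-91226445, plus strand): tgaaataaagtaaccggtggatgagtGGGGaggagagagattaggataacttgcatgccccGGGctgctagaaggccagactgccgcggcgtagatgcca
Msi1 (chr5:115882072-115882171, plus strand): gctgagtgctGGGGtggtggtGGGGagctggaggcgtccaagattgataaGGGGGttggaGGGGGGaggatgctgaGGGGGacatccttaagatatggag
Sox9 (chr11:112644446-112644545, plus strand): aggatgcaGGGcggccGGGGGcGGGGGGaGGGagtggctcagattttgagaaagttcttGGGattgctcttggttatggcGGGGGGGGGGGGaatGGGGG
Vim (chr2:13496638-13496737, plus strand): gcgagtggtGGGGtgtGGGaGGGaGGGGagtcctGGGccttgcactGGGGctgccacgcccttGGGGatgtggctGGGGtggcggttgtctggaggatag
The stretch in Msi1 held 50 G and 10 C in 5 capital runs, and that in Vim 52 G and 17 C in 8 runs. The stretch in Olig2 was the most balanced of these, with 36 G and 19 C. They are the extreme of each peak and not its average. Over the whole gene-side part of the peak, skew was -0.051 for Olig2, -0.045 for Sox9, -0.012 for Vim and 0.046 for Msi1, and over the first 1 kb it was -0.029, 0.012, -0.15 and -0.061 in the same order. These stretches began 551 (Olig2), 2464 (Msi1), 908 (Sox9) and 1084 (Vim) bases after the start.

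Among all starts in the peaks, Sgpl1, Garnl3 and Pitpna were 3 of the 5 with the highest GC skew in the first 1 kb of the gene. Sgpl1 encodes sphingosine-1-phosphate lyase, and Pitpna a phosphatidylinositol transfer protein. Their most G-rich stretches within the first 1 kb are shown, again with runs of G in capitals.
Sgpl1 (chr10:60610098-60610197, minus strand): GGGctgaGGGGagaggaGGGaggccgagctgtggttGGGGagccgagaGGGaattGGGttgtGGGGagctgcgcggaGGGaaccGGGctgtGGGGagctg
Garnl3 (chr2:32986636-32986735, minus strand): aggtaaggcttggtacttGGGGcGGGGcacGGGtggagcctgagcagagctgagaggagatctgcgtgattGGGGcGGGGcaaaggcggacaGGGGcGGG
Pitpna (chr11:75402326-75402425, plus strand): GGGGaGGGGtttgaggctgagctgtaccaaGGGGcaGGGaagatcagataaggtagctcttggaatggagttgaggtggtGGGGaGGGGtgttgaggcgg
Grik5 and Errfi1 were among the 5 with the lowest skew. Grik5 encodes a kainate receptor subunit and Errfi1 a feedback inhibitor of the EGF receptor. No stretch is shown for Chid1 and Nrxn2, the other starts of highest skew. Their peaks ended 0.385 kb (first intron) and 0.075 kb (first exon) into the gene. Hrk, the start of lowest skew (-0.38), is not shown either. Btbd2 and Camk2n1, also among the starts of lowest skew, had no exon-free stretch of this length in the first 1 kb. For Grik5 and Errfi1 the stretch with the largest excess of C within the first 1 kb is shown, and capitals mark runs of at least 3 C.
Grik5 (chr7:25856831-25856930, minus strand): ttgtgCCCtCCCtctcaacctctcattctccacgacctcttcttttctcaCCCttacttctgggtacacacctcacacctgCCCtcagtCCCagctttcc
Errfi1 (chr4:150228635-150228734, plus strand): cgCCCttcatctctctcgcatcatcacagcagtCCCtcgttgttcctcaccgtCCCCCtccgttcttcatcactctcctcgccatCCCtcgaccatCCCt
The stretch in Grik5 held 45 C and 9 G, whereas that in Sgpl1 held 57 G and 13 C. Peaks over 1 start therefore lay on G-rich as well as on C-rich coding strands. Over the whole first 1 kb, Sgpl1 had 33 runs of at least 4 G and 1 run of at least 4 C, and a skew of 0.44. Grik5 had 7 such runs of G, 12 of C and a skew of -0.34.

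The peaks over 1 gene start were intermediate in width and the richest in GC among the classes of peaks. Their median width was 2.33 kb, with quartiles of 1.49 and 3.69 kb. Peaks without a start or an end had a median width of 1.02 kb, peaks over a divergent pair 2.66 kb, peaks over ends only 4.16 kb, and peaks over a start and an end 7.03 kb. The last class holds a start and an end by definition, and its narrowest peak spanned 0.608 kb. A wide peak is also more likely to hold a given position, so choosing peaks over a start favours wide ones in part by definition. Of the peaks over 1 start, 1845 (87.8%) were at least 1 kb wide, compared to 58.7% of all peaks, and 9 were narrower than 0.3 kb. At least 5 kb wide were 265, and 40 reached 10 kb.

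**Figure D1:**
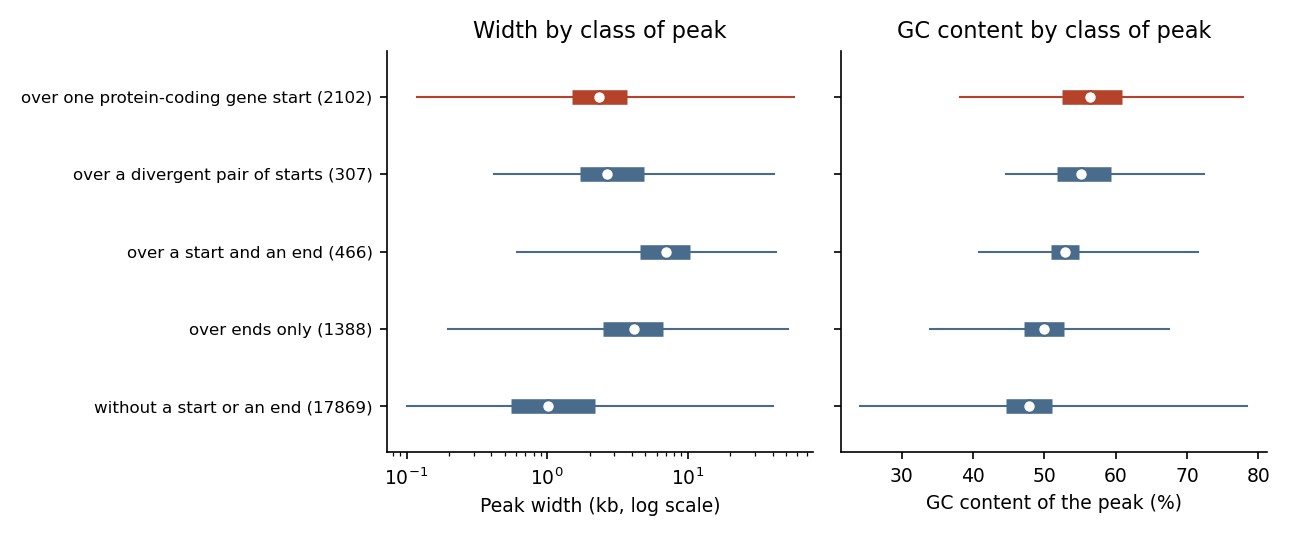
Width (left, kb on a log scale) and GC content (right, %) of the peaks in 5 classes, with the number of peaks in brackets. Thin lines span the lowest to the highest value, thick lines the quartiles, and white points mark medians. Peaks over 1 gene start (red) had a median width of 2.33 kb and a median GC content of 56.4%, while peaks without a start or an end sat at 1.02 kb and 47.8%.

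The median GC content of the peaks was 56.4% (quartiles 52.5 and 60.9%), compared to 55.1% for peaks over a divergent pair, 50.0% for peaks over ends only and 47.8% for peaks without either. The ratio of observed to expected CpG had a median of 0.65 in these peaks and 0.19 in peaks without a start or an end. The widest peak, of 56.7 kb, covered the start of Tnrc18 on chromosome 5 from 143542341 to 143599079, and ran 19.7 kb upstream and 37.0 kb into the gene. The peak of 36.9 kb over Lasp1, which encodes an actin-binding LIM and SH3 protein, ran 35.9 kb into a gene of 39.8 kb and only 1.05 kb upstream. Tfdp1, which encodes a dimerisation partner of E2F factors, had a peak of 22.5 kb, of which 22.2 kb lay on the gene side. The peak over Ece1, the endothelin-converting enzyme, was as wide at 22.8 kb but lay almost wholly upstream, with 0.063 kb inside the gene. The narrowest peaks were those over Crebl2 (0.119 kb), Tubgcp6 (0.138 kb), Rpl28 (0.143 kb), Rsad1 (0.191 kb) and Arrb2 (0.221 kb). Each of these 5 ended within the first exon.

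The peaks extended farther into the gene than upstream. From the start, the median reach was 0.747 kb upstream and 1.35 kb in the direction of transcription. The peak reached farther into the gene for 1472 of 2134 starts (69.0%). This share was 66.9% for genes on the plus strand and 71.2% for genes on the minus strand, and was above 50% in both orientations. Because peaks that also contained a gene end were left out, the reach into short genes was capped by the selection. Among genes of at least 20 kb, where this cap matters little, the share was 69.8%, and for genes under 5 kb it was 64.7%. The end of an upstream neighbour could likewise cap the upstream reach, whatever the gene length. With peaks that held a gene end kept, the share was 68.0%. At a distance of 1 kb, 37.7% of the starts were still in the peak upstream and 63.9% on the gene side. At 5 kb these shares fell to 1.55% and 5.72%.

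**Figure D2:**
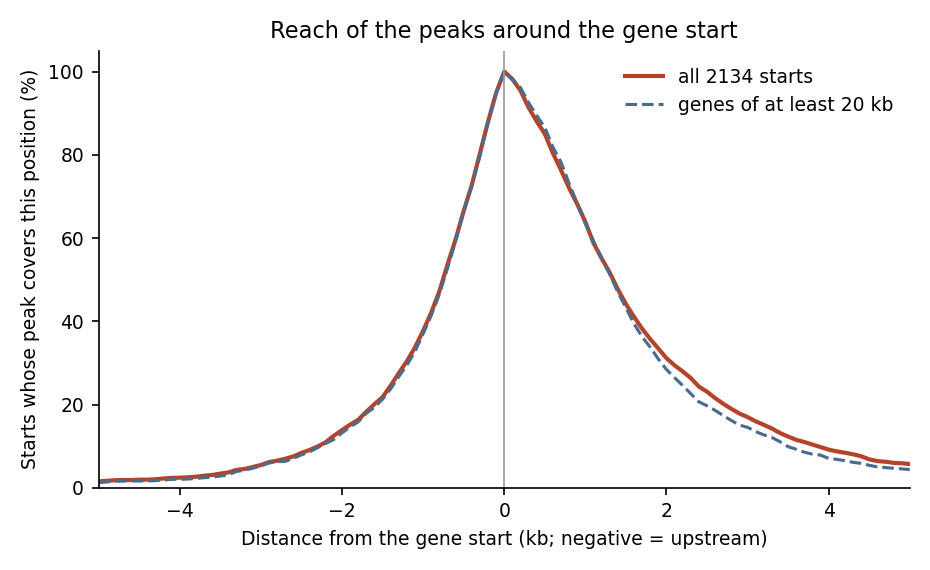
Share of gene starts (y axis, %) whose peak still covers a position at a given distance from the start (x axis, kb, negative values upstream). The red line shows all 2134 starts and the dashed line genes of at least 20 kb. Both lines fall more slowly on the gene side, with 63.9% of all starts covered at 1 kb into the gene and 37.7% at 1 kb upstream.

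Peaks with the longest reach into a gene were those of Tnrc18, Lasp1, Tfdp1, 6430548M08Rik (20.4 kb) and Foxp4 (20.1 kb), a forkhead transcription factor. Besides Ece1 and Tnrc18, the longest upstream reaches were those of Creb3 (11.3 kb), a membrane-bound transcription factor, 4932431P20Rik (10.1 kb) and 6430548M08Rik (9.04 kb). The peak over Creb3 held 0.171 kb of the gene. In all, 4 upstream reaches were at least 10 kb, compared to 22 on the gene side.

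The gene-side edge most often lay in the first intron. It fell there for 1375 starts (64.4%), in the first exon for 216 (10.1%) and beyond the first intron for 543 (25.4%). The first exons of these genes had a median length of 0.250 kb and the first introns of 4.64 kb. Where the edge lay beyond the first intron, genes were shorter, with a median of 12.0 kb, and the peak had a median reach of 2.39 kb into the gene. Genes whose peak ended in the first intron had a median length of 37.6 kb. The annotated gene start need not be the site used in these cells, and 2009 of the 2134 starts also began a protein-coding transcript.

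Gene starts in the peaks were CpG-rich far more often than starts outside. A start was called CpG-rich when the 250 bp on each side had a GC content above 50% and an observed to expected CpG ratio above 0.6. By this measure 1803 of the 2134 starts (84.5%) were CpG-rich, compared to 7932 of the 19042 starts outside any peak (41.7%). The trait was not particular to these peaks, since 87.9% of starts in peaks over a divergent pair were CpG-rich. In peaks over a start and an end the share was 59.9%. The median GC content within 250 bp was 65.8% at starts in the peaks and 55.4% at starts outside. The hexamer TATAAA, searched on the coding strand from 40 to 20 bp upstream of the start, was present at 27 starts in the peaks (1.27%), at 2.49% of starts outside and at 2.28% of all starts. Among CpG-rich starts alone the order was the opposite, with 1.05% in the peaks and 0.605% outside.

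GC skew turned from negative to positive across the start. In 100 bp bins the mean skew of starts in the peaks was lowest at -0.030, centred 0.15 kb upstream, and highest at 0.078, centred 0.25 kb inside the gene. At starts outside any peak the highest mean was 0.043, in the first bin of the gene. Among CpG-rich starts alone the highest means were closer, at 0.084 in the peaks and 0.070 outside. Positive skew in the first 1 kb was found at 1639 starts in the peaks (76.8%) and at 63.1% of starts outside. It was as frequent in peaks over a divergent pair (76.5% of starts), and was found at 66.4% in peaks over a start and an end. Among CpG-rich starts taken alone, 78.7% in the peaks and 70.1% outside had positive skew, with median skews of 0.073 and 0.044. The first 1 kb held on average 9.54 runs of at least 4 G and 6.86 runs of at least 4 C at starts in the peaks, and 5.28 and 4.57 at starts outside. Of the 1787 starts with at least 0.2 kb of peak on each side, 1320 (73.9%) had a higher skew in the gene-side part of the peak than in the upstream part.

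**Figure D3:**
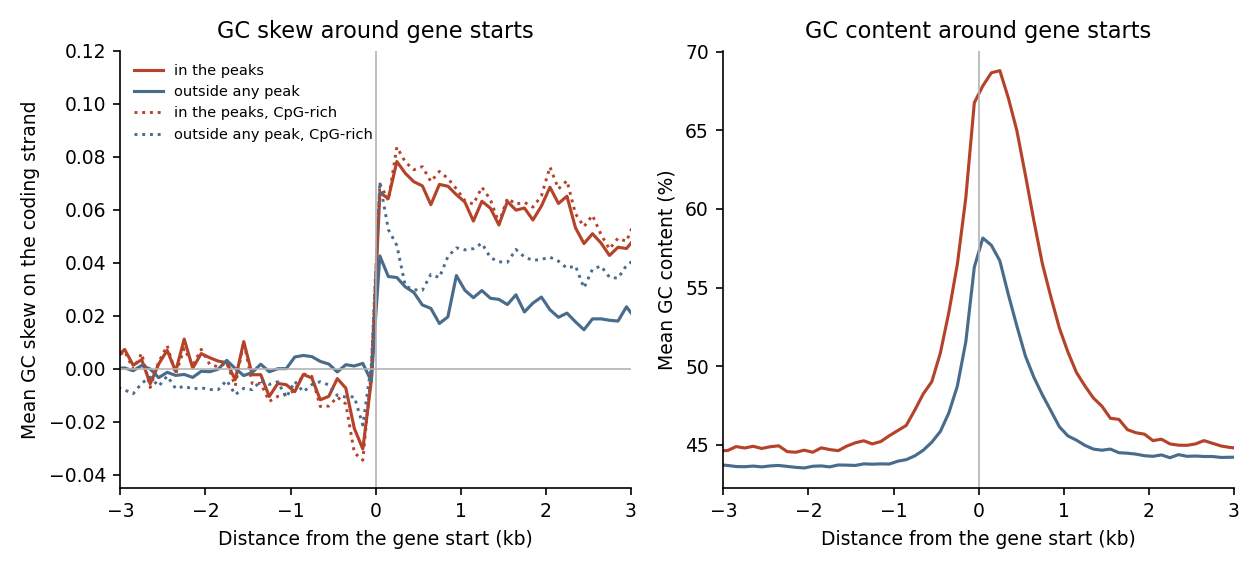
Mean GC skew on the coding strand (left) and mean GC content in % (right) in bins of 100 bp against distance from the gene start in kb, for starts in the peaks (red) and outside any peak (blue). Dotted lines show CpG-rich starts alone. Skew at starts in the peaks rises from -0.030 just upstream to 0.078 inside the gene. On the gene side it stays above that of all starts outside. The CpG-rich lines meet in the first bin of the gene, at 0.070 in both. GC content is higher in the peaks near the start.

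The share of starts found in the peaks rose with each of these features. It was 0.116% for starts with a GC content under 40% within 250 bp, 15.0% between 60 and 70%, and 23.5% at 70% or more. By skew in the first 1 kb it rose from 4.34% below -0.1 to 19.4% at 0.2 or more. Among CpG-rich starts alone, the same classes went from 10.6% to 32.4%, so the rise was present within this class as well. Of the 10630 CpG-rich starts, 17.0% lay in the peaks, compared to 2.82% of the others. Skew was not a requirement, since 60 of the 564 CpG-rich starts with a skew below -0.1 lay in the peaks.

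**Figure D4:**
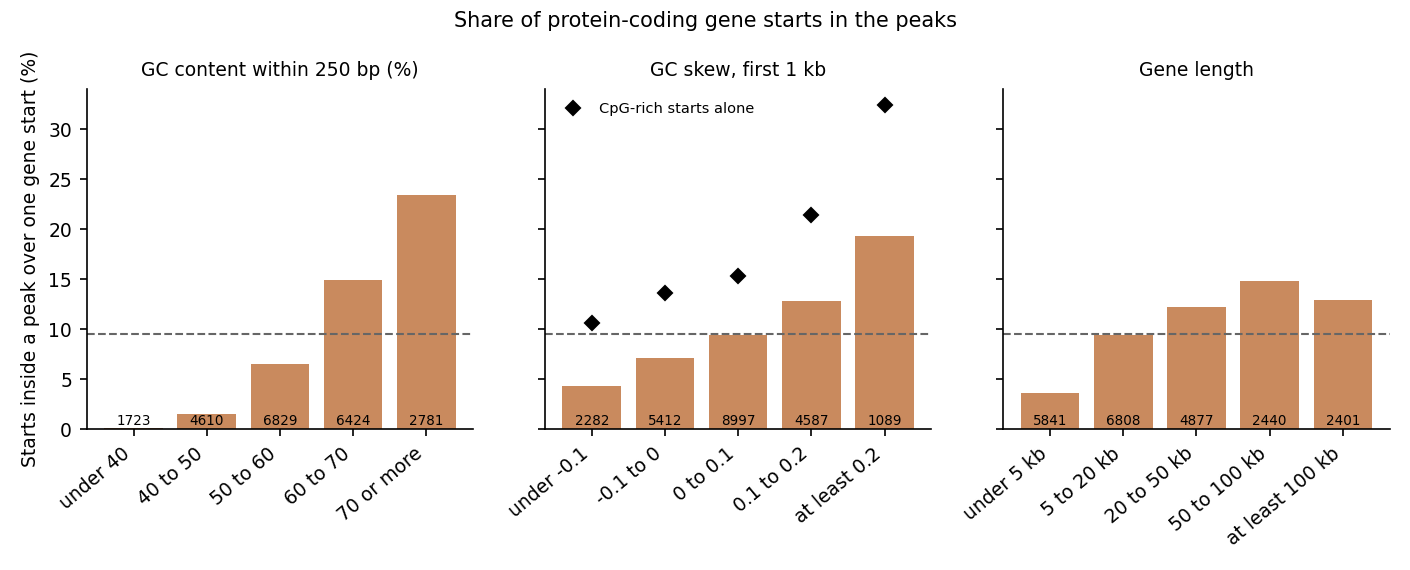
Share of all protein-coding gene starts that lay in a peak over 1 gene start (y axis, %), by GC content within 250 bp, GC skew in the first 1 kb and gene length. Bars carry the number of starts, diamonds give CpG-rich starts alone, and the dashed line marks the share over all starts, 9.54%. The share climbs with GC content to 23.5% and with skew to 19.4%, and is lowest for genes under 5 kb at 3.68%.

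The share also varied with gene length, in part by definition, since a peak over a short gene easily contains its end. The share in the peaks was 3.68% for genes under 5 kb, 12.3% for genes of 20 to 50 kb, 14.9% for genes of 50 to 100 kb and 13.0% for longer ones. Counting any peak, the shares ran from 10.9% for genes under 5 kb to 17.7% for genes of 50 to 100 kb. Genes with starts in the peaks had a median length of 27.3 kb, compared to 15.0 kb for those outside. On X, 43 of 932 starts (4.61%) lay in the peaks, and on Y none of 17. The autosomes ranged from 7.56% on chromosome 14 to 12.4% on chromosome 15.

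Groups of genes were compared with these background shares, 9.54% of all starts and 17.0% of CpG-rich starts. Among 20 markers of neural stem and progenitor cells, the starts of 10 (50.0%) lay in the peaks. Among these were Olig2, Msi1, Sox9, Vim, Nes, Sox21, Sox2, Egfr and Id1, and Nr2e1 lay in a peak over a divergent pair. Of the 13 CpG-rich starts in this list, 8 were in the peaks. The peak over Olig2, on chromosome 16 from 91220405 to 91228436, was 8.03 kb wide, of which 5.39 kb lay upstream, and that over Msi1, on chromosome 5 from 115875326 to 115882763, was 7.44 kb wide with 4.28 kb upstream. The peak over Nes, the intermediate filament nestin, lay on chromosome 3 from 87774059 to 87778306 and spanned 4.25 kb with 3.31 kb in the gene. The peak over Sox2, a transcription factor of stem cells, reached 1.95 kb upstream and 0.294 kb into the gene, within the first exon. Among the other markers, starts missed a peak by 0.175 kb (Id3), 0.233 kb (Gli3), 1.24 kb (Hes1), 3.05 kb (Hes5) and 4.31 kb (Slc1a3). The rest lay farther away, at 10.8 kb (Notch1), 69.2 kb (Prom1), 100 kb (Pax6) and 319 kb (Fabp7).

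Of the starts of other cell type markers, 2 lay in the peaks. None of the starts of 10 neuron markers lay in any peak, although 4 of them were CpG-rich. The same was true of 8 microglia, 7 endothelium and 6 blood markers. In the oligodendrocyte list, 1 of 6 starts lay in a peak, that of Cnp, an enzyme of myelin, and in the muscle and liver list 1 of 8, that of the apolipoprotein gene Apoa1. Few starts in these lists were CpG-rich, with none among microglia or blood markers and 2 among endothelium markers. Since 2.82% of all starts that are not CpG-rich lay in the peaks, counts of 0 in lists of this size are near the background. A peak list holds no expression, so these counts do not name the cell types present.

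Transcription factor families differed widely in their share. Of the 26 Krüppel-like and Sp factors, zinc finger proteins that bind GC-rich promoter elements, 13 starts (50.0%) lay in the peaks, all of those found in any peak. Peaks over Klf11 (6.16 kb), Klf16 (6.06 kb), Klf7 (5.93 kb) and Klf3 (5.33 kb) were the widest of them. By contrast, none of the 40 Hox starts lay in any peak, although 22 of them were CpG-rich, and the closest of these starts to a peak, that of Hoxd1, was 27.6 kb away. Hox genes set positional identity along the body axis. The Sox factors had 4 of 19 starts in the peaks, Fox factors 8 of 43, and Notch and bHLH factors 6 of 25. Of 36 forebrain transcription factor starts, with separate entries for Gsx2, 5 (13.9%) were in the peaks. Among them was Meis2 with a peak of 9.23 kb that ran 7.41 kb into the gene. Zinc finger genes named Zfp had 49 of 371 starts (13.2%) in the peaks. Within CpG-rich starts, 3 of 22 forebrain genes and 41 of 215 Zfp genes lay in the peaks, near the share of 17.0%. The same counts were 12 of 17 for Krüppel-like and Sp factors, 4 of 13 for Sox, 7 of 29 for Fox, and 5 of 21 for Notch and bHLH factors.

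**Figure D5:**
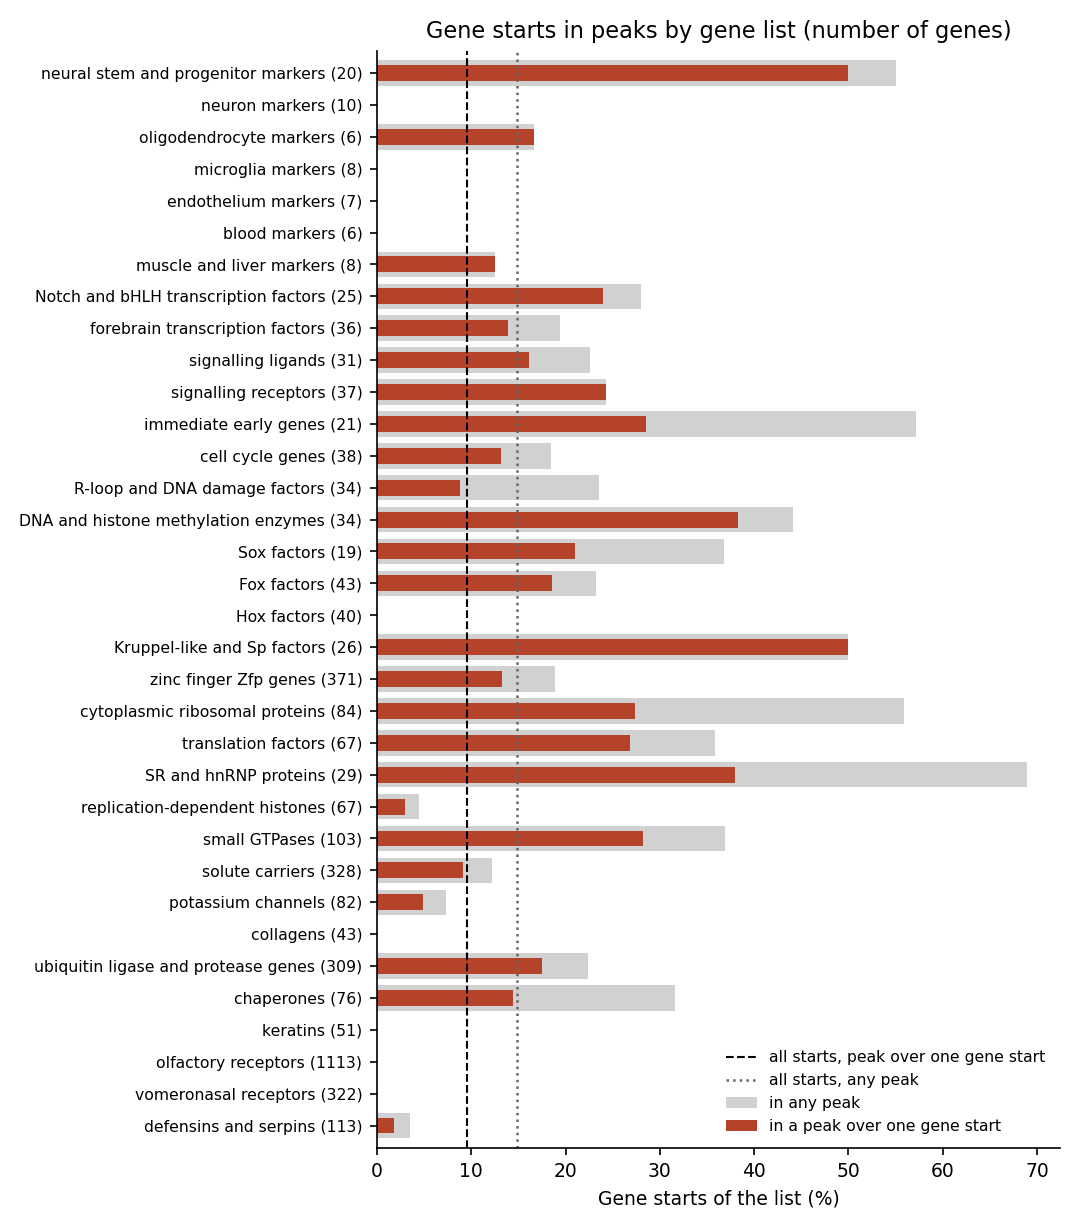
Share of the gene starts of each list (x axis, %) in a peak over 1 gene start (red) and in any peak (grey), with the number of annotated starts in brackets. The dashed line marks 9.54%, the share of all starts in a peak over 1 gene start, and the dotted line 14.9%, the share in any peak. Neural stem and progenitor markers and Krüppel-like and Sp factors reach 50.0%, whereas neuron markers, Hox factors, collagens, keratins and olfactory receptors have no start in any peak.

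Genes of chromatin modification were also in the peaks more often than the 9.54% of all starts. Of 34 DNA and histone methylation enzymes and their partners, 28 had CpG-rich starts. Of these 28, 10 lay in the peaks, compared to 17.0% of all CpG-rich starts. Counting all 34, 13 starts (38.2%) lay in the peaks. They included Dnmt3a, a de novo DNA methyltransferase, with a peak of 9.23 kb on chromosome 12 from 3804548 to 3813778, Tet3, which oxidises methylcytosine, with 5.06 kb, and Kdm6b, a demethylase of histone H3 lysine 27, with 17.2 kb. The Polycomb subunits Ezh2 (2.69 kb), Eed (2.61 kb) and Suz12 (0.846 kb) were all in this group. The start of Suz12 was the first base of its peak.

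Genes of RNA processing and translation had shares above 9.54% as well. SR and hnRNP proteins, which bind pre-mRNA, had 11 of 29 starts in the peaks (37.9%) and 20 in any peak. Peaks over Hnrnpa3 and Srsf1 were 5.34 and 5.05 kb wide. Of 84 cytoplasmic ribosomal protein starts, 23 (27.4%) lay in the peaks and 47 in any peak, 15 of them in peaks that also held a gene end. Translation factors had 18 of 67 starts in the peaks (26.9%), with the widest peak, of 13.8 kb, over Eif4ebp1, which encodes a repressor of the cap-binding protein eIF4E. Small GTPases had 29 of 103 (28.2%), among them Rhog (8.74 kb) and Cdc42 (6.26 kb). Ubiquitin ligase and protease genes had 54 of 309 (17.5%), and chaperone genes matched by name had 11 of 76 (14.5%). Within CpG-rich starts, 41 of 193 ubiquitin genes and 10 of 53 chaperone genes lay in the peaks, near the share of 17.0%. The same counts were 22 of 75 for ribosomal proteins, 17 of 59 for translation factors, 10 of 23 for SR and hnRNP proteins and 26 of 72 for small GTPases. The widest peak in the chaperone list covered Hspg2, which was matched by its symbol but encodes the matrix proteoglycan perlecan.

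Of 21 immediate early genes, which respond to stimuli without new protein synthesis, 6 (28.6%) had starts in the peaks and 12 (57.1%) in any peak. Of the 20 CpG-rich starts in this list, 6 were in the peaks. The background shares of CpG-rich starts were 17.0% in the peaks and 25.4% in any peak. Fosl2, a Fos family member, had a peak of 21.2 kb on chromosome 5 from 32436728 to 32457943, with 19.1 kb in the gene. Nr4a1, an orphan nuclear receptor, had a peak of 7.72 kb, and Fos, a subunit of AP-1, a peak of 4.24 kb. The starts of Jun, Ier2, Egr3, Fosl1 and Dusp1 lay in peaks that also contained a gene end, which this selection leaves out.

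Signalling receptors had 9 of 37 starts in the peaks (24.3%) and ligands 5 of 31 (16.1%). Of the 9 receptor starts, that of Fgfr2 rests on an annotation of 3009 kb. It lay 1004 bp from the start of Ctbp2, in the same peak. Among receptors were Fzd7 (4.72 kb) and Fzd1 (4.20 kb), which bind Wnt proteins, and the Hedgehog pathway members Smo (3.17 kb) and Ptch1 (2.35 kb). The ligands were Vegfa (10.2 kb), Pdgfa (7.10 kb), Tgfb2 (4.68 kb), Dll3 (3.10 kb) and Wnt7b (1.46 kb). Cell cycle genes had 5 of 38 starts in the peaks (13.2%), with Cdkn1b, an inhibitor of cyclin-dependent kinases, and E2f1, E2f3, E2f4 and Rb1. Within CpG-rich starts, 5 of 33 cell cycle genes and 3 of 20 ligands lay in the peaks, near the share of 17.0%. The count for receptors was 9 of 29. Factors that act on R-loops or DNA damage had 3 of 34 (8.82%), close to the 9.54% of all starts, although 28 of their starts were CpG-rich. In any peak they had 8 (23.5%), compared to 14.9% of all starts and 25.4% of CpG-rich starts. These 3 were Dhx9, an RNA:DNA helicase, with a peak of 5.43 kb, Top2b, a topoisomerase, with 1.91 kb, and Ddx21, a helicase, with 0.538 kb. Among the genes of enzymes that degrade RNA in hybrids, the start of Rnaseh2a lay in a peak over a divergent pair and that of Rnaseh2c in a peak with a gene end. The start of Rnaseh1 was 14.0 kb from the nearest peak and that of Rnaseh2b 127 kb.

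Several families had shares below 9.54%. Replication-dependent histone genes had 2 of 67 starts in the peaks (2.99%), Hist1h1c and Hist1h1d, although 51 of the 67 were CpG-rich. Potassium channels had 4 of 82 (4.88%), with 34 of the 82 CpG-rich. Defensins and serpins had 2 of 113 (1.77%), and only 2 of the 113 were CpG-rich, so this share was near the 2.82% of starts that are not CpG-rich. Solute carriers had 30 of 328 (9.15%), near the background, among them the glucose transporter gene Slc2a1 with a peak of 11.6 kb. No start lay in any peak among 43 collagen, 51 keratin, 1113 olfactory receptor and 322 vomeronasal receptor genes. Of the collagen starts 12 were CpG-rich, of the keratin starts 2, of the olfactory receptor starts none and of the vomeronasal starts 1.

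The groups also differed in the skew of the starts covered. Of the 23 ribosomal protein starts in the peaks, 22 had positive skew in the first 1 kb, with a median of 0.12. The corresponding numbers were 10 of 11 for SR and hnRNP proteins (median 0.16), 12 of 13 for methylation enzymes (median 0.14) and 26 of 29 for small GTPases (median 0.095). Among the 10 neural stem and progenitor markers in the peaks, only Nes (0.070), Sox2 (0.046) and Sox9 (0.012) had positive skew, and the median was -0.023. Vim had the lowest value of them, -0.15, followed by Sox21 (-0.086) and Msi1 (-0.061). Over all starts in the peaks the share with positive skew was 76.8% and the median 0.070. The lists were small and the difference between them was not tested.

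Genes with a start in these peaks often held more peaks. Another peak overlapped 1352 of the 2134 genes (63.4%), whereas any peak overlapped 29.1% of genes whose start lay outside. Longer genes offer more room, and at 20 to 50 kb the shares were 70.6% and 38.9%. The gene end lay in another peak for 404 genes (18.9%), compared to 7.82% of genes with a start outside. At 5 to 20 kb, where this share was highest, the values were 26.9% and 11.9%. The most additional peaks were counted in Fgfr2 (43), Trio (25), Npas3 (24) and Cdh13 (22). Trio encodes a guanine nucleotide exchange factor, Npas3 a brain transcription factor and Cdh13 an atypical cadherin. The count for Fgfr2 rests on its annotation, which spans 3009 kb because of a transcript that begins 1004 bp from the start of Ctbp2, and both starts lay in the same peak.

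Of the 32 peaks with a second start, 19 held starts on opposite strands more than 1 kb apart and 13 held starts on the same strand. Suds3 and Taok3 were the farthest apart, at 4136 bp in a peak of 6.84 kb. Plod3 and Znhit1, 1002 bp apart, and Tmem38a and 9130011J15Rik, 1015 bp apart, were kept just inside the limit of the rule. Tiparp and 4931440P22Rik, 969 bp apart, and Rhbdd3 and Gm11031, 952 bp apart, were left out just below it. In 3 peaks the pair were separate entries under the same symbol (Ndufb8, Fryl and Runx2). Starts of noncoding genes, which the rule ignores, lay in 241 of the peaks (11.5%), of which 138 peaks held a lincRNA start. In 100 peaks (4.76%) a noncoding start lay on the opposite strand within 1 kb upstream of the coding start.

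Membership at the edge of a peak was a matter of a few bases for some genes. Of the starts in the peaks, 147 lay within 100 bp of a peak edge, and 177 starts outside lay as close. Suz12 and Dip2c were the closest inside, at 0 and 1 bp from the edge, and Ibtk and Siah2 missed a peak by 1 bp. Among the 19042 starts outside any peak, 684 had a peak within 1 kb on the gene side and 358 within 1 kb upstream.

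The digestion before DRIP bears on where peaks can begin and end. Sites of the 5 enzymes (EcoRI, HindIII, BsrGI, SspI and XbaI) lay within 100 bp of 35.5% of the 4204 peak edges, compared to 27.4% of the edges of all other peaks. The share near a site depended on the distance allowed, with 20.5% of the peak edges within 50 bp and 52.8% within 200 bp. The peaks held 0.523 sites per kb, and other peaks 0.661. The restriction fragment that contained the start had a median length of 2.43 kb for starts in the peaks and 1.39 kb for starts outside. For 1320 of the starts (61.9%) the whole peak lay within that fragment, with 100 bp allowed on each side. The part of fragment length in the width, reach and selection of these peaks was not tested.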

How the data were processed

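R-loop peaks of 1 DRIP-seq list from NSPCs were analysed. Per the labels and methods, the authors trimmed reads (Trim Galore 0.6.6), aligned them to mm9, discarded duplicate reads and used a Hidden Markov Model for peak calling. The deposited values are peak positions in base pairs, with no counts, signal or score. The rule that combined replicates is not given in the sources used here. Depth per sample is therefore unknown, and no replicate error could be given.

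Peaks were placed on mm9 and GENCODE M1 with Python 3.11.15, numpy 2.4.6, pandas 2.3.3 and matplotlib 3.10.9. No test was run. Some results are not reported here. Peak classification was tested on simulated data. The members, the 34 gene lists and the sets printed as sequences were chosen with earlier results of these data known. Named genes were the 5 extremes of width, skew and reach, up to 4 members per list by peak width, and cases at the limits of the rule. Other members of lists, their neighbours outside peaks and genes with the most additional peaks were named after their values were seen. Alternatives were peaks of at least 1 kb, merged peaks, autosomes, single starts, transcript starts, other limits for opposite-strand starts and gene ends, and other windows.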

Additional observations from a re-analysis of the deposited data

How the results depend on the processing

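Results were recomputed under each alternative in turn, and a median or share was counted as moved when it left the 95% interval of the value reported, which covers counting error only. A number of peaks was counted as moved when it changed by more than 1.5 times. The direction of the reach and of the skew kept its sign in all alternatives run. The number of peaks ranged from 1845 to 2568. With peaks of at least 1 kb, the median width was 2.58 kb, the median GC content 55.8% and the share of all starts covered 8.37%. With starts and ends of coding transcripts, the share reaching farther into the gene was 61.1%, the median GC content 56.1%, the share with positive skew 79.6% and the share of starts covered 10.4%. The share of starts covered was 9.94% when opposite-strand starts were left out only within 500 bp. Keeping peaks with a gene end gave a median width of 2.71 kb and a share of 12.0%. Positive skew was found at 73.6% of starts over the first 0.5 kb and at 81.8% over the first 2 kb. The causes were not tested. Of the 68 alternative values, 50 stayed within these limits and 18 moved. No paired analysis was possible because the deposited data are 1 peak list that does not separate replicates. Depth and signal limit the list in ways that could not be examined from positions alone.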
